A study of Mus musculus with 6 samples.

Results

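The translation initiation factors studied here were the 46 genes, of 23951 in the deposited count table, whose symbol begins with Eif and a digit. Of 55 such symbols, 4 eIF2 kinases, 3 eIF4E-binding proteins and the 2 sex-linked eIF2 subunits Eif2s3x and Eif2s3y were left out. The rule goes by names, although the group was proposed with earlier results of these data known, and the genes were grouped by the complex in their name. Of the 46, 43 had enough reads to be tested, and Eif3j1, Eif3j2 and Eif4e1b had 0 counts in all 6 libraries.

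RNA was sequenced from haematopoietic stem cells (HSCs) of mouse fetal liver, as 3 wild type (WT) and 3 RISP knockout (KO) libraries, all of strain C57BL/6. RISP, encoded by Uqcrfs1, is the Rieske iron-sulfur subunit of respiratory complex III. The Cre line or other means of deletion, the deleted part of the gene, the age of the embryos and their number per library were not given in the sources used here. The labels do not say whether libraries came from separate embryos, so the p-values below measure variation among the libraries, and that spread may be technical. Libraries held 10191354 to 14590844 counts. Uqcrfs1 stood at 77.3, 123 and 61.0 CPM (counts relative to the size of the library) in WT replicates 1 to 3 and at 4.33, 3.39 and 3.08 in KO replicates 1 to 3, each KO value lying far below each WT value. The HSC marker genes Kit, Cd34 and Hlf were detected in every library, at 662 to 837, 292 to 377 and 320.5 to 491.5 CPM in WT and 529 to 619, 220 to 249 and 251 to 308 CPM in KO.

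Initiation factors bring the small ribosomal subunit, the initiator methionyl tRNA and the mRNA together. eIF2 carries the initiator tRNA as a complex with GTP and is recharged by eIF2B, while eIF4F, built from the cap-binding eIF4E, the scaffold eIF4G and the RNA helicase eIF4A, brings in the capped mRNA through eIF3 on the small subunit. eIF1, eIF1A and eIF5 act in the choice of the start codon, and eIF5B joins the large subunit. Phosphorylation of eIF2 by stress kinases blocks its recharging, lowers initiation as a whole and favours translation of Atf4, the transcription factor gene of the integrated stress response, and adult HSCs are known for a low rate of protein synthesis.

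Of the 43 tested initiation factors, 10 were higher and 1 was lower in KO, 25.6% of the group. Over all 12204 genes tested, 11.4% passed the same threshold, an adjusted p under 0.05 (edgeR quasi-likelihood test, Benjamini-Hochberg over all genes tested), with 6.41% higher and 4.99% lower. The higher genes were Eif4a2, Eif4g3, Eif4g1, Eif4b and Eif4enif1 of the eIF4 group, Eif3a, Eif3c and Eif3g of eIF3, Eif2s2 of eIF2, and Eif5b. The lower gene was Eif3e. Fold changes of the 10 ran from 1.33-fold for Eif3a to 2.04-fold for Eif4a2. In the same cells Atf4 stood at 85.2 to 103 CPM in WT and 341 to 370 CPM in KO, a log2 fold change of 1.95 (edgeR, adjusted p = 4.11e-09).

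The initiation factors did not move as one block. Their median log2 fold change was 0.04, with 22 above and 21 below 0, beside a median of -0.02 and quartiles of -0.38 and 0.33 over all genes tested. In 17 of the 43 genes the CPM values of WT and KO did not overlap, 12 with KO higher and 5 with KO lower. Over all genes tested, 30.2% did not overlap, 15.7% with KO higher and 14.5% with KO lower. The summed level of the 46 genes was 10684, 11138 and 10823 CPM in WT replicates 1 to 3 and 13181, 12430 and 11993 CPM in KO replicates 1 to 3. All 3 KO sums lay above all 3 WT sums, and Eif3a, Eif3c and Eif4g1 carried the most counts of the higher genes. By complex, the median log2 fold change was -0.07 for eIF1, 0.14 for eIF2, 0.20 for eIF2B, -0.13 for eIF3, 0.09 for eIF4 and 0.12 for eIF5, and the 1 gene of eIF6 stood at -0.15.

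**Figure D1:**
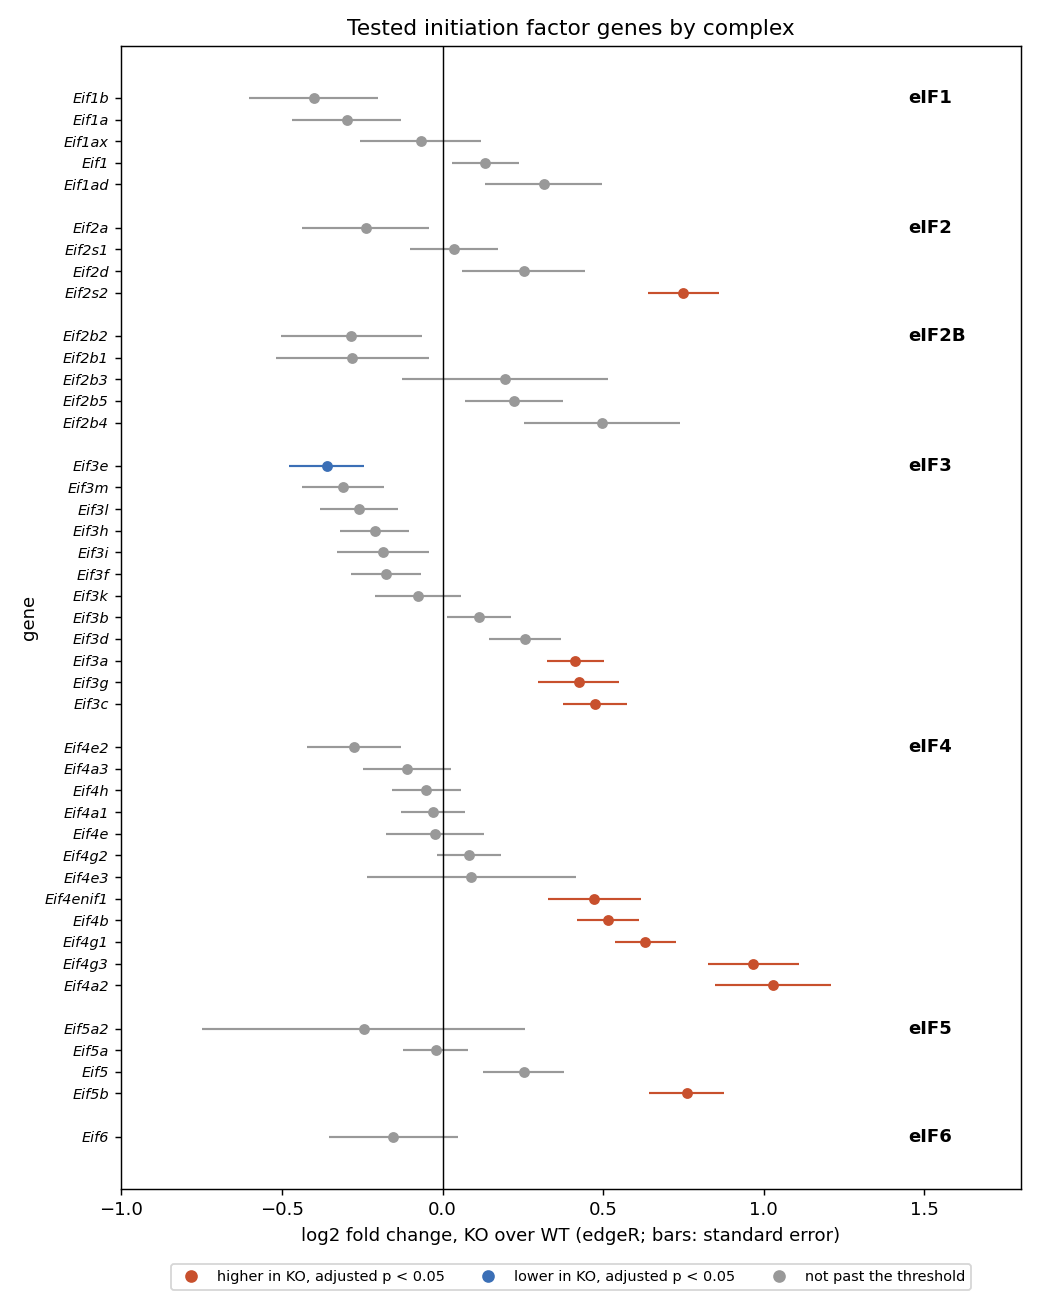
Log2 fold change (KO over WT, x axis) of each of the 43 tested initiation factor genes (y axis), grouped by complex, with bars of 1 standard error from the edgeR fit over 3 WT and 3 KO libraries. The 10 higher genes (red) sit in eIF2, eIF3, eIF4 and eIF5, Eif3e (blue) is the 1 lower gene, and eIF1, eIF2B and eIF6 hold grey points alone.

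The eIF4 group, taken by name, held 5 of the 10 higher genes, of 12 tested and 13 in the table. Of the 5, Eif4enif1 encodes a protein of mRNA repression, described below, and not a factor that recruits the capped mRNA. Over all genes tested, 6.41% were higher. Both large eIF4G scaffolds rose. Eif4g1, which encodes the main scaffold that holds eIF4E, eIF4A and eIF3 together, was at 543, 588 and 572 CPM in WT and 906, 896 and 836 CPM in KO. The lowest KO library lay well above the highest WT library, and the log2 fold change was 0.63 with a standard error (SE) of 0.09 (edgeR, adjusted p = 0.000133). Eif4g3, a close homologue of Eif4g1, was at 108, 173 and 137 CPM in WT and 265, 283 and 268 CPM in KO. The groups did not overlap, the KO libraries were the closer to each other, and the log2 fold change was 0.97 (SE 0.14, edgeR adjusted p = 0.000118). Eif4g2, also called DAP5, lacks the part that binds eIF4E. It did not pass, at 977 ± 50.02 CPM in WT and 1033 ± 124 CPM in KO (mean ± SD, n = 3 each, log2 fold change 0.08, edgeR adjusted p = 0.673), with overlapping groups. Without KO replicate 1 its fold change had the other sign, -0.01.

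Of the eIF4A helicases, which unwind the leader of the mRNA, Eif4a2 rose while its paralogue Eif4a1 did not pass. Eif4a2 stood at 157, 124 and 95.0 CPM in WT and 197, 285 and 285 CPM in KO. Its groups did not overlap, with KO replicate 1 the lowest of its group and nearest to WT replicate 1, the highest of WT. The log2 fold change was 1.03 (SE 0.18, edgeR adjusted p = 0.00202). Eif4a1 stood at 686, 760 and 750 CPM in WT and 786, 719 and 646 CPM in KO, overlapping throughout (log2 fold change -0.03, SE 0.10, edgeR adjusted p = 0.898). The counts of Eif4a2 per count of Eif4a1 were 0.229, 0.164 and 0.127 in WT and 0.251, 0.397 and 0.441 in KO. This ratio, chosen after its values were seen and given without a test, lay higher in every KO library. Eif4a3, the helicase of the exon junction complex rather than of eIF4F, had a log2 fold change of -0.11 (edgeR adjusted p = 0.677).

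The coding sequences of the helicase pair are alike enough to ask whether reads could be exchanged, so a stretch of each is shown here. Over 1221 aligned coding bases, Eif4a1 and Eif4a2 were 78.0% identical, with a longest shared run of 20 bases. The stretch holds the codons of the Asp-Glu-Ala-Asp box, found in frame by translation, that names DEAD-box helicases. It was taken from the GENCODE M21 transcripts, on the coding strand, at coding bases 505 to 594 of Eif4a1 and 511 to 600 of Eif4a2, and capitals mark the 12 of 90 bases that differ.
Eif4a1: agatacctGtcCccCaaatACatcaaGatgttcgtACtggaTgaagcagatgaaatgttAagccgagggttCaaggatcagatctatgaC
Eif4a2: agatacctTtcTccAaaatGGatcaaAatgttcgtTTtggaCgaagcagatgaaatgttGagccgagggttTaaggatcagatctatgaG
Differences are spread over the stretch. The labels do not give the read length. In the same annotation 5 small nucleolar RNA genes lie inside Eif4a2. Its exons overlap those of 6 genes on the same strand, these 5 and Gm49346, and those of Rfc4 on the opposite strand. Small nucleolar RNA genes also lie inside Eif4a1 (3), Eif3a (2), and Eif4g1, Eif4g2 and Eif5 (1 each). Except in Eif3a, at least 1 of them overlaps an exon on the same strand. Reads of genes that overlap on the same strand cannot be told apart by strand. The labels do not give the strand setting of the counting, so this also holds for genes on opposite strands. Rfc4 itself stood at 45.3 CPM in WT and 43.2 CPM in KO (edgeR adjusted p = 0.893).

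**Figure D2:**
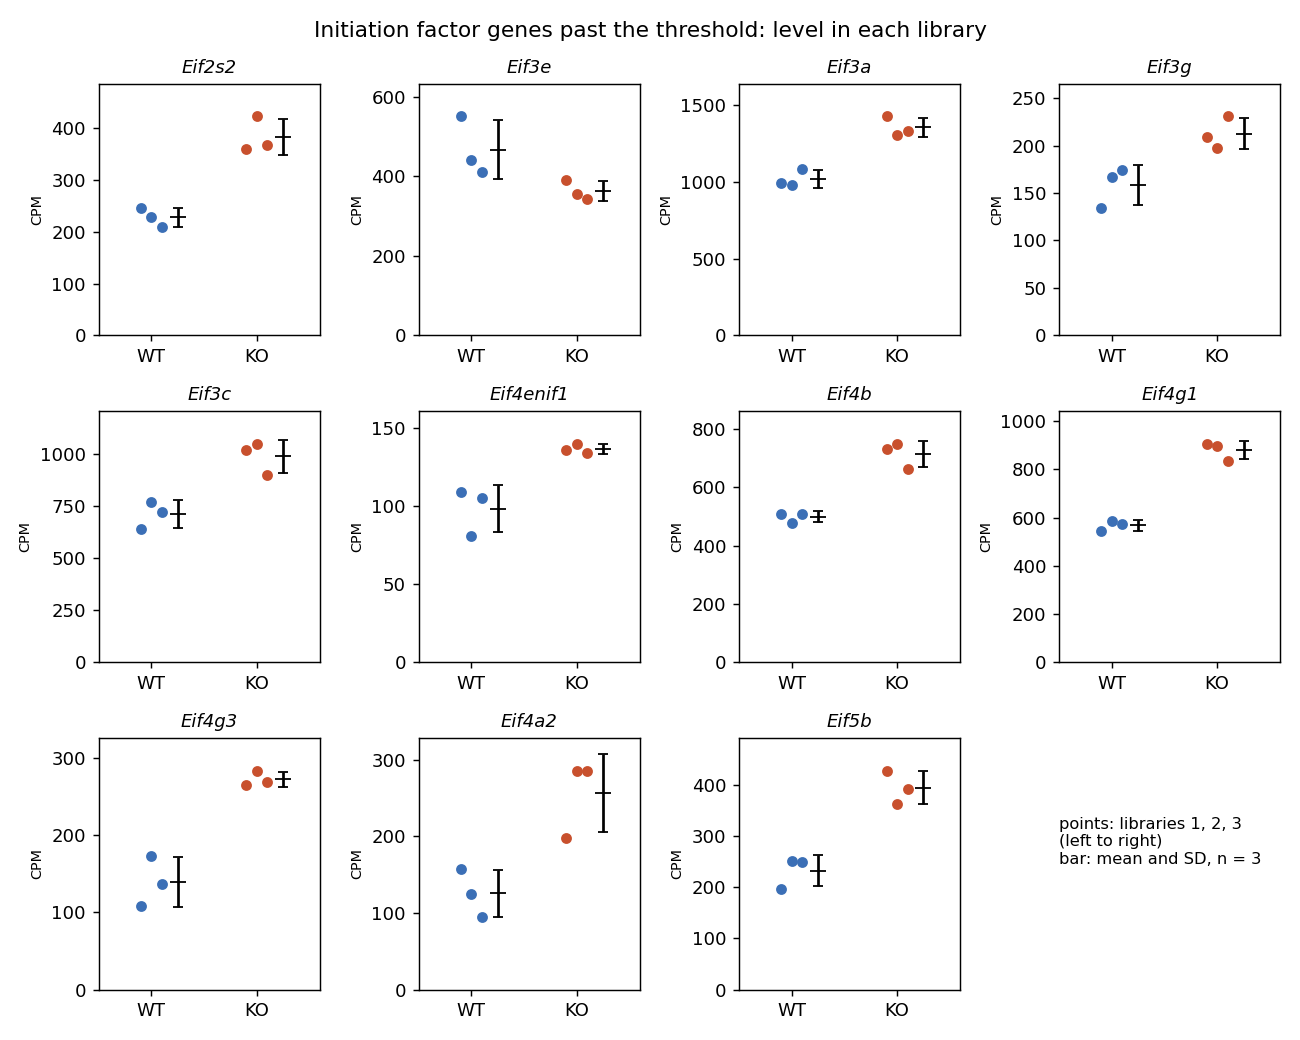
Level (CPM, y axis) of the 11 initiation factor genes past the threshold in each of the 3 WT and 3 KO libraries (points, replicates 1 to 3 from left to right), with black bars for the mean and SD of each group (n = 3). In 10 panels every KO point lies above every WT point, and for Eif3e every KO point lies below.

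Of the remaining eIF4 genes, Eif4b and Eif4enif1 rose and the cap-binding genes did not pass. Eif4b, whose product stimulates eIF4A, stood at 509, 479 and 509 CPM in WT and 729, 748 and 661 CPM in KO, with no overlap (log2 fold change 0.52, SE 0.10, edgeR adjusted p = 0.00141). Eif4h, a smaller protein with the same role, stood at 286 ± 6.54 CPM in WT and 276 ± 21.6 CPM in KO (mean ± SD, n = 3 each, edgeR adjusted p = 0.833). Eif4enif1 encodes 4E-T, which carries eIF4E into the nucleus and acts in mRNA repression. It stood at 109, 81.2 and 105 CPM in WT and 136, 140.2 and 134.5 CPM in KO, without overlap (log2 fold change 0.47, SE 0.14, edgeR adjusted p = 0.0379). Its call was lost without KO replicate 1, KO replicate 2, KO replicate 3 or WT replicate 2, with an adjusted p of up to 0.159. Among cap-binding genes, Eif4e was at 118 ± 10.1 CPM in WT and 116 ± 20.4 CPM in KO (mean ± SD, n = 3 each, log2 fold change -0.02, edgeR adjusted p = 0.948). Of Eif4e, Eif4e2 and Eif4e3, 0 passed in edgeR, 0 had an unadjusted p under 0.05, and 0 passed in DESeq2 or limma-voom. For 3 genes, beside 11.4% called over all genes tested, this says little. Eif4e1b, the paralogue known from oocytes, had no counts.

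Of the 4 tested genes with an eIF2 name, 1 passed, beside 11.4% of all genes tested, which says little for so few genes. Of the 4, only Eif2s1 and Eif2s2 encode subunits of eIF2, the carrier of the initiator tRNA. Eif2s2, the beta subunit, which also contacts eIF5 and eIF2B, stood at 246, 230 and 209 CPM in WT and 361, 423 and 367 CPM in KO. The groups lay far apart for this gene, with a log2 fold change of 0.75 (SE 0.11, edgeR adjusted p = 0.000137). Eif2s1, the alpha subunit that the stress kinases phosphorylate, stood at 117, 127 and 145 CPM in WT and 143, 118 and 137 CPM in KO, overlapping (log2 fold change 0.04, SE 0.14, edgeR adjusted p = 0.913). Eif2a and Eif2d encode single-chain factors that can bring initiator tRNA to the ribosome without eIF2. They had log2 fold changes of -0.24 and 0.25 and did not pass (edgeR adjusted p = 0.4997 and 0.453).

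The 5 subunit genes of eIF2B, the exchange factor that recharges eIF2, gave 0 calls in edgeR, with 0 at an unadjusted p under 0.05 and 0 in DESeq2 or limma-voom. With 11.4% called over all genes tested, 0 calls among 5 genes says little. Eif2b4, the delta subunit gene, was the nearest to the threshold, at 21.1, 33.7 and 31.2 CPM in WT and 43.8, 36.5 and 41.0 CPM in KO. Its groups did not overlap, yet the log2 fold change of 0.50 had an SE of 0.24 (edgeR adjusted p = 0.208). Eif2b5, which encodes the catalytic epsilon subunit, stood at 108, 102 and 77.6 CPM in WT and 114, 114 and 107 CPM in KO (log2 fold change 0.22, edgeR adjusted p = 0.405), with overlap. Eif2b1, Eif2b2 and Eif2b3 had log2 fold changes of -0.28, -0.28 and 0.20. The eIF2B median of 0.20 was -0.03 without KO replicate 1.

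eIF3, the many-subunit scaffold on the small ribosomal subunit, had 12 tested genes of 14 in the table. Of the 12, 3 were higher and 1 lower, beside 6.41% higher and 4.99% lower over all genes tested. The higher genes were Eif3a, Eif3c and Eif3g. Eif3a, the subunit on which the complex is built, stood at 990, 978 and 1083 CPM in WT and 1426, 1306 and 1333 CPM in KO. Its groups did not overlap, and the log2 fold change was 0.41 (SE 0.09, edgeR adjusted p = 0.0044). Eif3c, its partner at the centre of the complex, stood at 638, 771 and 723 CPM in WT and 1017, 1048 and 899 CPM in KO. The lowest KO library exceeded the highest WT library, with a log2 fold change of 0.48 (SE 0.10, edgeR adjusted p = 0.00368). Eif3g, an RNA-binding subunit, stood at 135, 167 and 174 CPM in WT and 209, 198 and 231 CPM in KO, without overlap (log2 fold change 0.42, SE 0.13, edgeR adjusted p = 0.0345). Its call was lost without WT replicate 1 or any 1 of the 3 KO libraries, with an adjusted p of up to 0.159.

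Eif3e, which encodes a subunit with a PCI domain, was the lower gene. It stood at 550, 440 and 410 CPM in WT and 391.5, 355 and 343 CPM in KO. The groups were close to each other, WT replicate 3 lying just above KO replicate 1, and the log2 fold change was -0.36 (SE 0.12, edgeR adjusted p = 0.048). Without WT replicate 3 the call was kept, and without any 1 of the other 5 libraries it was lost, with an adjusted p of up to 0.260. When offsets for length and GC content were fitted, its log2 fold change was -0.08 (edgeR adjusted p = 0.764). The offsets took the longest annotated transcript as the length, 4123 nt for Eif3e. Its WT means of 467 CPM and 438 RPKM lie nearer each other than that length would give if both came from the same reads. The deposited RPKM may therefore rest on a shorter length, which was not tested. How the counts and the RPKM were each made is not fully given, and this offset result is uncertain.

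The subunits of eIF3 thus lay on both sides of 0. The subunits a, b, c, g and i are called the core here, a grouping made after the values were seen and given without a test. The name does not mean that the other subunits are peripheral. Of these 5, 3 were higher and the median log2 fold change was 0.41. Eif3i did not pass, at 171, 166 and 164 CPM in WT and 172, 156 and 112 CPM in KO (log2 fold change -0.19, edgeR adjusted p = 0.468), where KO replicate 3 was the lowest. Neither did Eif3b, the scaffold that binds g and i, at 393 ± 13.2 CPM in WT and 425.5 ± 8.54 CPM in KO (mean ± SD, n = 3 each, edgeR adjusted p = 0.523). Of the other subunits d, e, f, h, k, l and m, Eif3e alone passed, and the median was -0.21. With the length and GC offsets this median was 0.00, while that of the core was 0.49. Eif3m, Eif3l and Eif3h had log2 fold changes of -0.31, -0.26 and -0.21 and did not pass (edgeR adjusted p = 0.127, 0.185 and 0.233), and Eif3d, which can itself bind the cap of some mRNAs, stood at 0.26 (edgeR adjusted p = 0.149). Eif3f and Eif3k stood at -0.18 and -0.08 (edgeR adjusted p = 0.336 and 0.787). The groups did not overlap in 8 of the 12 genes, beside 30.2% of all genes tested. Of genes not called, these included Eif3b with KO higher and Eif3f, Eif3h and Eif3m with KO lower. In all, 7 of the 12 had an unadjusted p under 0.05 in edgeR, beside 3055 of all 12204 genes tested, and DESeq2 and limma-voom each called 4, beside 14.2% and 11.4% of those genes. The counts of Eif3c per count of Eif3e were 1.16, 1.75 and 1.76 in WT and 2.60, 2.95 and 2.62 in KO, higher in every KO library. This ratio was chosen after the values were seen.

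**Figure D3:**
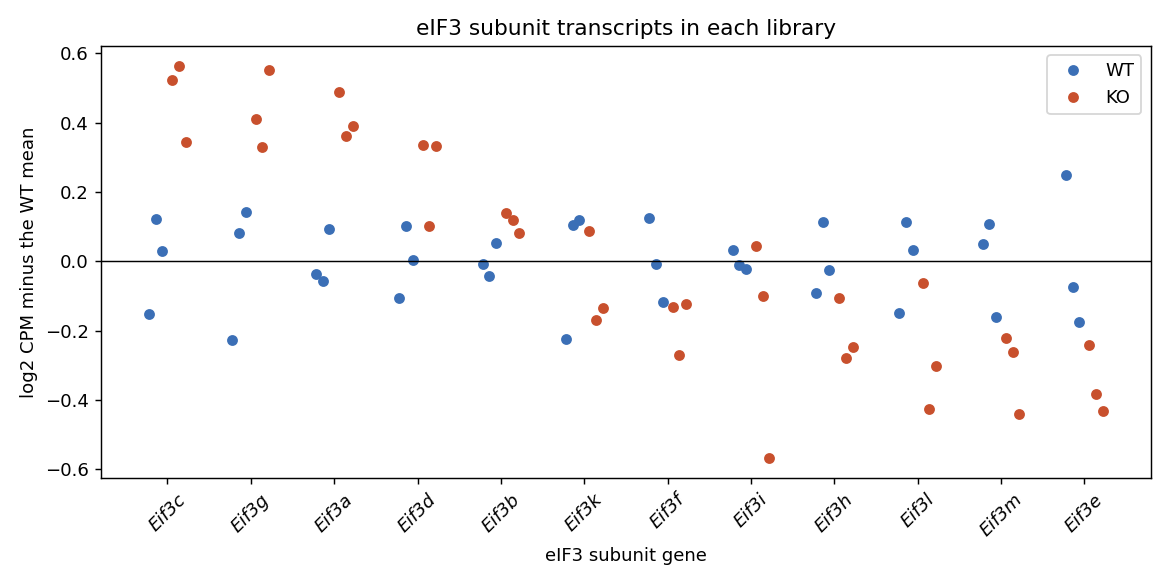
Level of the 12 tested eIF3 subunit genes (x axis, ordered by fold change) as log2 CPM minus the mean of the WT libraries (y axis), with 1 point per library, WT in blue and KO in red. The KO points of Eif3a, Eif3b, Eif3c and Eif3g lie above their WT points. Those of Eif3e, Eif3f, Eif3h and Eif3m lie below, and those of Eif3d, Eif3i, Eif3k and Eif3l overlap with WT.

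Levels of different subunits can be set side by side only per length, in the deposited RPKM values (reads per unit of gene length and depth). In WT, Eif3e led with 438 ± 50.9 RPKM, followed by Eif3h at 217 ± 9.29 and Eif3f at 216 ± 20.4, which did not differ beyond their spread (mean ± SD, n = 3 each). Eif3c and Eif3m followed at 187 ± 19.0 and 186 ± 17.6, and Eif3a at 165 ± 15.5. Eif3k, Eif3i and Eif3g lay at 135 ± 17.9, 119.5 ± 5.39 and 107.5 ± 13.4, each within reach of its neighbour. Eif3d, Eif3b and Eif3l closed the order at 99.6 ± 8.61, 97.1 ± 2.96 and 96.7 ± 8.82, with no difference beyond their spread. In KO, Eif3e was at 348 ± 36.6 RPKM, still above Eif3c at 275 ± 17.3 and Eif3a at 226 ± 7.49 (mean ± SD, n = 3 each). On this scale the change of Eif3e did not pass (limma on log2(RPKM + 1), log2 fold change -0.33).

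Eif3j1 and Eif3j2, which encode the loosely bound j subunit, had 0 counts in every library but not 0 RPKM. Eif3j1 was listed at 0.195, 0.0428 and 60.0 RPKM in WT and 89.6, 0.0306 and 70.9 RPKM in KO. Eif3j2 was listed at 68.3, 81.1 and 0.00191 RPKM in WT and 0.00643, 80.1 and 1.36 RPKM in KO. In each library 1 of the pair carried nearly all of the signal, and which of them did so differed between replicates of the same group. The sum of both was steadier, at 68.5, 81.2 and 60.0 RPKM in WT and 89.6, 80.2 and 72.2 RPKM in KO. The groups overlapped, at 69.9 ± 10.7 in WT and 80.6 ± 8.69 in KO (mean ± SD, n = 3 each). The 2 genes were identical at 786 of 786 aligned coding bases, with a shared run of 784. A stretch near the start of the coding sequence shows this, from the GENCODE M21 transcripts on the coding strand, at coding bases 7 to 96 of Eif3j1 and 13 to 102 of Eif3j2, with no capitals because 0 bases differ.
Eif3j1: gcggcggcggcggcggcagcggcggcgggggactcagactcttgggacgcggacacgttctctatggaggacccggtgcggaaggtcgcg
Eif3j2: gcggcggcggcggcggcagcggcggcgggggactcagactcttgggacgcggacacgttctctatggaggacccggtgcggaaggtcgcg
Of all 23951 genes, 8498 had 0 counts in every library, and 180 of these had a mean RPKM of at least 0.5. Values of Eif3j1 or Eif3j2 alone were therefore not compared between WT and KO.

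**Figure D4:**
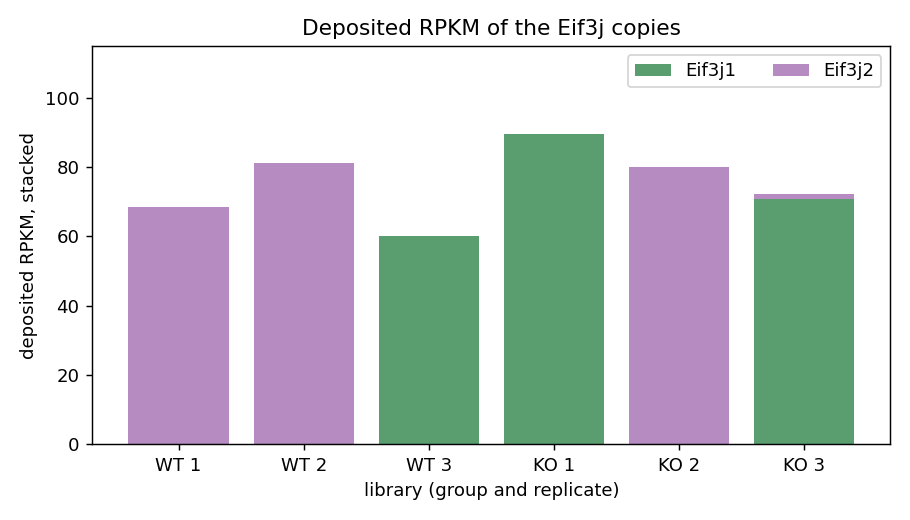
Deposited RPKM of Eif3j1 (green) and Eif3j2 (purple), stacked, in each of the 3 WT and 3 KO libraries (x axis). Nearly all of each bar is 1 gene, Eif3j1 in WT replicate 3 and KO replicates 1 and 3 and Eif3j2 in the other libraries, while the height of the bars stays between 60.0 and 89.6 RPKM.

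At the last step of initiation, Eif5b rose. It encodes the GTPase that joins the large ribosomal subunit, and stood at 197, 250.5 and 249.7 CPM in WT and 427, 363 and 392 CPM in KO. The groups did not overlap, and the log2 fold change was 0.76 (SE 0.12, edgeR adjusted p = 0.000218). Its exons overlap those of Rev1 on the opposite strand, and Rev1, a DNA polymerase gene, was also higher, at 45.03 CPM in WT and 73.8 CPM in KO (log2 fold change 0.71, edgeR adjusted p = 0.0108). Eif5, which activates the GTPase of eIF2 at the start codon, stood at 276, 222 and 210 CPM in WT and 324, 264 and 256 CPM in KO, with overlap (log2 fold change 0.25, edgeR adjusted p = 0.221). Eif5a, whose product carries hypusine and also acts in elongation, stood at 769 ± 91.2 CPM in WT and 758 ± 27.9 CPM in KO (mean ± SD, n = 3 each, log2 fold change -0.02, edgeR adjusted p = 0.927). Its paralogue Eif5a2 had the fewest counts of the tested members, at 10.8 ± 1.35 and 9.12 ± 5.36 CPM.

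The eIF1 group and eIF6 gave 0 calls in edgeR, with 0 genes at an unadjusted p under 0.05 and 0 in DESeq2 or limma-voom. These are few genes beside a share of 11.4% called over all genes tested, so the lack of calls says little. Eif1, which guards start codon choice, stood at 297, 346 and 300 CPM in WT and 341, 342 and 352 CPM in KO (log2 fold change 0.13, edgeR adjusted p = 0.476). Eif1b, its paralogue, stood at 58.5, 52.9 and 45.7 CPM in WT and 38.1, 42.9 and 37.9 CPM in KO. The groups of Eif1b did not overlap, but its log2 fold change of -0.40 had an SE of 0.20 (edgeR adjusted p = 0.221). This was the largest fall in size among the 43. Eif1a, Eif1ax and Eif1ad had log2 fold changes of -0.30, -0.07 and 0.31. The coding sequences of Eif1 and Eif1b were 81.3% identical and those of Eif1a and Eif1ax 85.5%, with longest shared runs of 25 and 28 bases. Eif6, which keeps large subunits from joining too early, stood at 61.1, 71.2 and 52.9 CPM in WT and 58.2, 41.9 and 66.6 CPM in KO, overlapping (log2 fold change -0.15, edgeR adjusted p = 0.701).

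The genes around the initiation factors were described from lists of 53 other translation genes, of which 52 were tested (Eef1a2 had 0 counts throughout) and 6 were higher and 4 lower in KO (19.2% past the threshold, beside the 11.4% of all genes). Of the 9 genes of eIF2 kinases, their regulators and eIF2 phosphatase subunits, 2 were higher and 1 lower. Eif2ak4, the kinase GCN2 that senses uncharged tRNA, stood at 36.9, 44.8 and 56.4 CPM in WT and 81.8, 93.3 and 73.1 CPM in KO, without overlap. Its log2 fold change was 0.84 (SE 0.19, edgeR adjusted p = 0.00652), with an adjusted p of 0.0567 without KO replicate 2. Gcn1l1, the activator of GCN2, stood at 180, 185 and 256 CPM in WT and 334, 329 and 290 CPM in KO (log2 fold change 0.62, SE 0.13, edgeR adjusted p = 0.00386). With the length and GC offsets its adjusted p was 0.0664. Dnajc3, which encodes an inhibitor of the kinases PERK and PKR, stood at 81.6, 91.8 and 90.1 CPM in WT and 53.3, 48.6 and 58.3 CPM in KO (log2 fold change -0.72, SE 0.17, edgeR adjusted p = 0.00794). Without KO replicate 2 its adjusted p was 0.0551. The kinases Eif2ak1, Eif2ak2 and Eif2ak3 had log2 fold changes of -0.40, 0.03 and -0.37 and did not pass (edgeR adjusted p = 0.216, 0.955 and 0.516).

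Among 10 regulators of the cap-binding complex, 3 were higher and 1 lower, beside 6.41% higher and 4.99% lower over all genes tested. Eif4ebp1 encodes 4E-BP1, which competes with eIF4G for eIF4E. It stood at 94.6, 91.5 and 99.8 CPM in WT and 191, 198 and 218 CPM in KO. All KO libraries were close to each other and well above WT, with a log2 fold change of 1.08 (SE 0.13, edgeR adjusted p = 9.17e-06). The counts of Eif4ebp1 per count of Eif4e, a ratio chosen after the values were seen, were 0.863, 0.709 and 0.870 in WT and 1.56, 1.496 and 2.34 in KO. Larp1, whose product binds the cap of mRNAs with a terminal oligopyrimidine tract, stood at 275, 329 and 324 CPM in WT and 499, 532 and 543 CPM in KO (log2 fold change 0.76, SE 0.11, edgeR adjusted p = 6.9e-05). Gigyf2, a partner of the cap-binding repressor 4EHP, rose by 0.52 (SE 0.13, edgeR adjusted p = 0.0108). Pdcd4, an inhibitor of eIF4A, stood at 197, 168 and 152 CPM in WT and 113, 117 and 116 CPM in KO (log2 fold change -0.58, SE 0.13, edgeR adjusted p = 0.00652), and its adjusted p was 0.105 with the length and GC offsets. Eif4ebp2 and Eif4ebp3 did not pass (edgeR adjusted p = 0.952 and 0.680).

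Of 14 helpers of initiation, 1 was higher and 2 lower, beside 6.41% higher and 4.99% lower over all genes tested. Abcf1, an ATP-binding protein gene linked to eIF2, had a log2 fold change of 0.44 (edgeR adjusted p = 0.0151), which was lost without WT replicate 1 or KO replicate 3, with an adjusted p of up to 0.0926. Paip2, an inhibitor of the poly(A)-binding protein, stood at 293, 294 and 222 CPM in WT and 182, 150 and 145 CPM in KO (log2 fold change -0.76, SE 0.13, edgeR adjusted p = 0.000663), with an adjusted p of 0.0717 with the length and GC offsets. Bzw1, which resembles eIF5, had a log2 fold change of -0.43 (edgeR adjusted p = 0.0309). It lost its call with the offsets and in 4 of the 6 fits that left out 1 library. Of 19 tested elongation, termination and mitochondrial translation factors, 0 passed in edgeR, 1 had an unadjusted p under 0.05, and 0 passed in DESeq2 and 1 in limma-voom. Whether initiation factors differed from these later steps as groups was not tested.

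Transcript length moved with the groups, and the initiation factors differ widely in it. Genes are not independent replicates. Across them, the Spearman coefficient between fold change and longest transcript was 0.38 over the 43 initiation factors and 0.12 over 12128 genes tested that had a length. These correlations are given as descriptions, and all points share the same 6 libraries. The longest annotated transcript need not be the one expressed. For several initiation factors the deposited counts and RPKM, if made from the same reads, point to shorter forms than those used. Examples are Eif3e, Eif1ax and Eif2s2, with 4123, 5172 and 4102 nt used, and Eif4e, with 4991 nt used. All values below that rest on length or on the offsets carry this limit. The 10 higher genes had a median length of 3978 nt, from 1101 nt for Eif3g to 8134 nt for Eif4g3, the 32 genes not called a median of 2550 nt, and all genes tested a median of 3437 nt. In the decile of tested genes with the longest transcripts, 203 were higher and 54 lower, and in the shortest decile 21 were higher and 95 lower. With offsets for length and GC content in the fit, all 10 higher initiation factors kept their calls, and Eif3e did not. The correlation with length after the offsets was 0.39 over the initiation factors and 0.02 over all genes. The offsets moved the median of all genes from -0.02 to 0.05 and those of eIF1 and eIF3 from -0.07 to 0.08 and from -0.13 to 0.05. With them, 786 genes were higher and 373 lower, against 782 and 609 without.

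**Figure D5:**
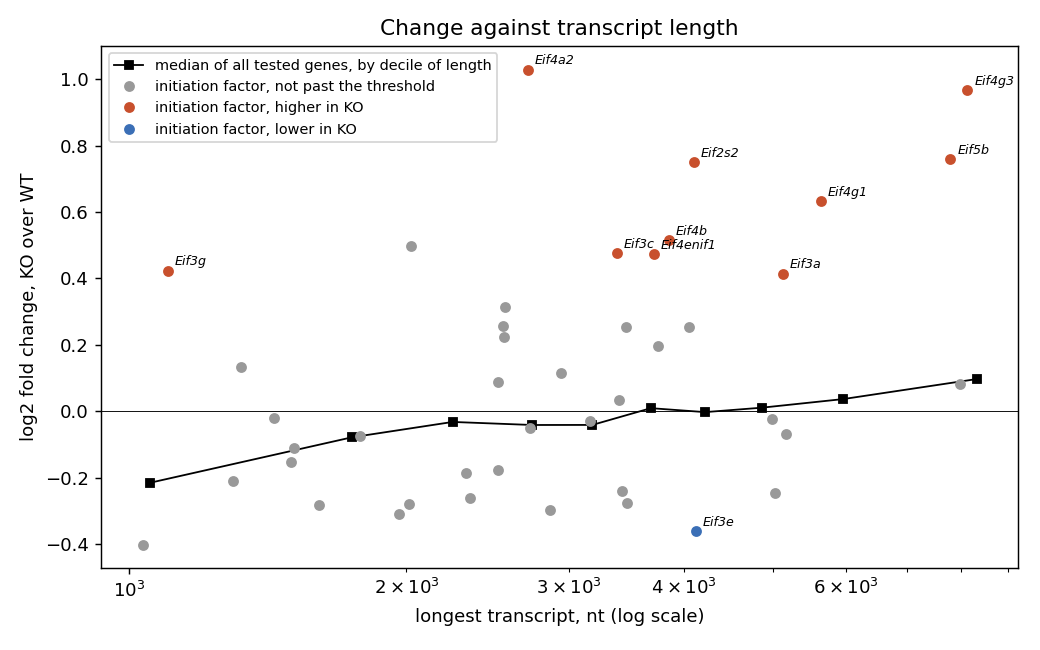
Log2 fold change (KO over WT) against the length of the longest annotated transcript (nucleotides, log axis) for the tested initiation factors (coloured points). The median of each decile of all tested genes by length is shown as black squares. The line runs from -0.22 in the shortest decile to 0.10 in the longest, and the higher genes spread over lengths from 1101 to 8134 nt.

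Summed levels of markers of other cell types were also lower in KO. The counts of lower genes below stand beside 4.99% lower over all genes tested, and 1 lower gene in a short list says little. Erythroid markers had a summed level of 287 to 568 CPM in WT and 82.4 to 141 CPM in KO, with 4 of 8 tested lower and Hbb-b1 and Hba-a1 at 0 counts in all libraries. Slc4a1 carried much of the sum, at a mean of 174 CPM in WT and 16.5 CPM in KO. Of the 8, 1 gene, Epor, had a log2 fold change above 0 (0.67, not past the threshold). As for the Eif3j genes, 0 counts did not mean 0 RPKM for Hbb-b1, which was listed at 373, 20.2 and 0.0012 RPKM in WT and 48.5, 0.000942 and 234 RPKM in KO, so these sums leave out its signal. Granulocyte markers were at 402 to 556 CPM in WT and 228 to 262 CPM in KO with 1 of 10 lower. Mpo carried much of this sum, at a mean of 235 CPM in WT and 153 CPM in KO. Of the 10, 1 gene, Ms4a3, had a log2 fold change above 0 (1.02, not past the threshold). Megakaryocyte markers were at 224.5 to 242 CPM in WT and 108 to 136 CPM in KO with 3 of 8 lower. Vwf carried much of this sum, at a mean of 131 CPM in WT and 75.7 CPM in KO. Macrophage markers were at 78.3 to 915 CPM in WT, the high value being WT replicate 3, and 34.15 to 70.2 CPM in KO, with 1 of 10 lower. Hepatoblast markers were at 141 to 179 and 73.8 to 135 CPM with 1 of 8 lower, Ttr being at 0 in all KO libraries. Of 11 HSC markers, at a summed 2371 to 2793 CPM in WT and 2065 to 2198 CPM in KO, Kit, Cd34 and Hlf were lower and 0 were higher (edgeR adjusted p = 0.0212, 0.00816 and 0.0151), and each of the 3 lost its call without KO replicate 2. The other 8 did not pass, and Procr, Mecom, Gata2 and Ptprc had log2 fold changes above 0, from 0.03 to 0.20. Fewer cells of a type and less RNA per cell cannot be told apart in these bulk samples. The part of cell makeup in the initiation factor results was not tested.

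Promoter sequences were read for 36 of the 46 genes, all 10 higher ones included, from RefSeq (GRCm38.p6), each from 250 bases before to 50 after the gene's start. Motifs known for ATF4 with C/EBP proteins, for the CREB and ATF family and for E-box factors such as MYC were looked for on both strands. The composite element bound by C/EBP and ATF proteins, TGATGNAA, was in 0 of 36, beside 2.75% of 9211 tested genes and 3.97% of all 32851 promoters. The core of the cyclic AMP response element, TGACGT, was in 6 of 36, of the higher genes in Eif3a, beside 13.7% of tested genes and 7.51% of all promoters. The E-box CACGTG was in 10 of 36, of the higher genes in Eif3a and Eif4g1, beside 11.9% of tested genes and 7.15% of all promoters. A window can hold more than 1 motif, and overlapping matches were not merged. A match is a description of letters and not a site of binding. The 250 bases before the start are shown for 3 higher genes from different complexes, 5′ to 3′ on the gene's strand, with the E-box in capitals. They are chr16:20672477-20672726 on the plus strand for Eif4g1, chr16:23107218-23107467 on the plus strand for Eif4a2 and chr2:154892907-154893156 on the minus strand for Eif2s2.
Eif4g1: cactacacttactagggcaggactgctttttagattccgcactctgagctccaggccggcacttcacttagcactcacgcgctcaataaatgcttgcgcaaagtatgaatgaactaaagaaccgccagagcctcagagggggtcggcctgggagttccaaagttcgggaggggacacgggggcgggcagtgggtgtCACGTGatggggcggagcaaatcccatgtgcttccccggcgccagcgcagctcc
Eif4a2: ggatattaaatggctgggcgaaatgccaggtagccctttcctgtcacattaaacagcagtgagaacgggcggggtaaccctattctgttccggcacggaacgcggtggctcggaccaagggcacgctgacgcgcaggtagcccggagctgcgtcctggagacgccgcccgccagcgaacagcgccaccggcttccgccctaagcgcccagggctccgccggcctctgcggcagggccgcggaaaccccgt
Eif2s2: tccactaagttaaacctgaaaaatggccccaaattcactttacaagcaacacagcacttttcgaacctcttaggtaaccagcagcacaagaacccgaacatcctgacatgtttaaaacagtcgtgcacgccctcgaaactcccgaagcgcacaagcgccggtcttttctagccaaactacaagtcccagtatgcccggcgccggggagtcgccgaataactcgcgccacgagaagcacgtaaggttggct
Eif4g1 holds 1 E-box in this stretch, and Eif4a2 and Eif2s2 hold none of the 3 motifs. Whether the motifs bear on the changes was not tested.

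The calls differed in how firmly they stood. Without any 1 library, 8 to 11 of the 11 calls remained. Eif2s2, Eif3a, Eif3c, Eif4a2, Eif4b, Eif4g1, Eif4g3 and Eif5b kept theirs in all 6 such fits, with a highest adjusted p of 0.0349 for Eif3c (edgeR). Eif3e, Eif3g and Eif4enif1 lost theirs in some, as given above. On the deposited RPKM values, with limma on log2(RPKM + 1), 6 of the 11 remained, and Eif3a, Eif3e, Eif3g, Eif4b and Eif4enif1 did not pass.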

How the data were processed

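Total RNA of 3 WT and 3 KO libraries was sequenced on an Illumina NextSeq500 from a low-input, strand-marking kit, per the labels' protocols. The authors deposited raw read counts and RPKM values for 23951 gene symbols, 1 column per library. TopHat, Cufflinks and mm9 are named in the submitters' processing notes; software versions, the counter, annotation, strand setting and multi-mapping rule were not given in the sources used here.

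Counts were tested for KO against WT in edgeR 4.0.16 under R 4.3.3, with filterByExpr, TMM scaling and the robust quasi-likelihood F test without covariates, on all genes, with Benjamini-Hochberg adjustment over the 12204 genes kept and a threshold of 0.05. CPM used TMM library sizes. The SE was the absolute log2 fold change over the root of F. Libraries held 10191354 to 14590844 counts; PCR reads without molecular identifiers are not independent molecules. Replicates differed beyond counting noise (chi-square per degree of freedom 21.7 to 43.1). Alternatives were DESeq2 1.42.0, limma-voom and limma on log2 RPKM (limma 3.58.1, pseudocounts 1 and 0.1, mean RPKM of at least 0.5 or no filter), other scalings and filters, a replicate block, offsets for length and GC content (GENCODE M21, longest transcript, 99.4% of tested genes), and leaving out each library. The tests were checked on simulated data, where edgeR missed part of the changes put in and DESeq2 made more false calls than edgeR, so calls shared with DESeq2 add little. One HSC marker gene is not reported here.

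Members and lists were chosen with earlier results of these data known. Named were all members past the threshold, per complex the tested member with the smallest p and the most abundant, the 5 largest changes, untested members, and other translation genes past the threshold. Uqcrfs1 and Atf4 were named as references, and further members describe their complexes.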

Additional observations from a re-analysis of the deposited data

Results flagged for a closer look

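Eif3j1 and Eif3j2 had 0 counts in all 6 libraries, so the comparison of counts does not hold them, while their deposited RPKM values added up to a mean of 75.3 RPKM over the 6 libraries. This is a signal outside the data used for the tests. It was present in both groups, at 69.9 ± 10.7 RPKM in WT and 80.6 ± 8.69 RPKM in KO (mean ± SD, n = 3 each), and the groups overlapped.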

How the results depend on the processing

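The 11 calls among initiation factors were kept with DESeq2, limma-voom, 2 other scalings, a stricter filter and no filter on low counts. With limma on log2(RPKM + 1), log2(RPKM + 0.1) and log2(RPKM + 1) with no filter, initiation factors past the threshold numbered 6, 6 and 1, all higher and 0 lower, other translation genes 4, 4 and 1, and all genes 503, 492 and 166, against 11, 10 and 1391. With length and GC offsets the numbers were 10 higher and 0 lower initiation factors and 6 other translation genes, and 67.8% of all calls were higher, against 56.2%. With the replicate block, alone or with the offsets, 0 initiation factors were lower, and with both Eif1 and Eif5 also passed as higher. Deviations of same-numbered WT and KO libraries were hardly correlated (0.01, 0.01 and -0.01). These values cannot exclude that such libraries were paired, and the labels do not say. With the block alone 10 of the 11 calls were kept, Eif3e having an adjusted p of 0.0504 (edgeR). Without 1 library, lower initiation factors numbered 0 to 1 and all calls 712 to 1263. Medians moved as follows. With offsets, and offsets with block, eIF1 stood at 0.0755 and 0.1195, eIF2 at 0.26 and 0.26, eIF3 at 0.0510 and 0.0455, eIF4 at 0.21 and 0.19, and eIF5 at 0.25 and 0.25. With log2(RPKM + 0.1) eIF1 stood at 0.0292 and eIF3 at -0.0111, and with log2(RPKM + 1), filtered or not, at 0.0286 and -0.0110. Without 1 library, eIF1 ran from -0.18 to 0.16, eIF3 from -0.18 to -0.0331 and eIF4 from 0.0360 to 0.15. Among the genes named by the rule above, fold changes that did not pass changed sign for Eif5a with offsets (0.0885) and offsets with block (0.0866). Without 1 library they did so for Eif4g2 (-0.0128 without KO replicate 1, to 0.16), Eif5a (-0.1091 to 0.0608, the latter without WT replicate 2) and Eif6 (-0.3017 to 0.0160, the latter without KO replicate 2). Of the other initiation factors, Eif1ax, Eif2b3, Eif2s1, Eif4a1, Eif4e, Eif4e3 and Eif5a2 also changed sign without 1 library. Where no construction of the setting shows it, the cause was not tested. Over the genes named by that rule and all settings, 460 of 540 values kept direction and side of the threshold, 74 no longer passed, 5 changed sign and 1 newly passed. These 540 values leave out the other initiation factors. Depth limits Eif5a2, Eif2b3 and Eif4e3 most, the tested members with the fewest counts.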

Other observations

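Ratios within the group, given without a test because they were chosen after the values were seen, described further pairs. The counts of Eif2s2 per count of Eif2s1, the beta against the alpha subunit of eIF2, were 2.11, 1.81 and 1.44 in WT and 2.52, 3.57 and 2.68 in KO, higher in every KO library. The counts of Eif3a per count of Eif3e were 1.8, 2.22 and 2.64 in WT and 3.64, 3.68 and 3.88 in KO, also without overlap. The counts of Eif4g3 per count of Eif4g1 were 0.199, 0.294 and 0.239 in WT and 0.293, 0.316 and 0.321 in KO, so that both scaffold genes rose while the ratio between them overlapped between the groups.

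Ppp1r15a, which encodes the stress-induced regulatory subunit of the eIF2 phosphatase, was chosen after its values were seen. It stood at 77.9, 60.1 and 39.9 CPM in WT and 89.6, 81.35 and 101 CPM in KO, without overlap, and did not pass in edgeR (log2 fold change 0.61, SE 0.21, adjusted p = 0.0583). It passed in limma-voom, with no filter on low counts and with the replicate block, and its highest adjusted p without 1 library was 0.213 (edgeR).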
